A study of Homo sapiens with 16 samples.

Results

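The genes described here are 38 protein-coding genes of the WNT pathway and of intestinal identity, of 19974 protein-coding genes on chromosomes 1 to 22 and X. They were taken from a list of names, 24 for the WNT pathway and 14 for intestinal identity, and the 2 sets are kept apart. The list was drawn up with earlier results of these data known, so comparisons with all genes are descriptions. A gene counted as holding a peak when at least 1 bp of the peak lay in its RefSeq body (GRCh38.p14, the hg38 build of the peak lists) or within 1 kb of either end. Peaks came from chromatin immunoprecipitation sequencing (ChIP-seq) of HCT116, an established human colorectal cancer cell line, which was done to ask how ARID1A relates to heterochromatin. The libraries covered shARID1A cells (H3K9me3, TRIM28 and SETDB1), which carry a short hairpin RNA against ARID1A, shCtrl cells (ARID1A, H3K9me3, TRIM28 and SETDB1), which carry a control hairpin, and cells with no hairpin named in their labels (ARID1A, H3K9me3 and TRIM28), called unmodified here. All groups share the HCT116 background, with no other agent named. The hairpin sequences, the number of clones and the time after transduction are unknown from the labels. Each of the 10 groups had 1 library, so differences between cell states lack replicates and none was tested.

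WNT ligands bind frizzled receptors with the coreceptors LRP5 and LRP6, which stops a destruction complex of AXIN1, AXIN2, APC and GSK3B from degrading beta-catenin (CTNNB1). Beta-catenin then enters the nucleus and works with TCF7L2, TCF7 or LEF1, and with BCL9 or BCL9L, at genes such as MYC, AXIN2 and LGR5. RNF43 and ZNRF3 remove frizzled receptors from the cell surface and so damp the signal. In the gut this pathway maintains crypt stem cells, while CDX1, CDX2, HNF4A and HNF4G drive the intestinal programme and VIL1, CDH1 and CDH17 belong to the epithelial surface and its junctions. HCT116 cells carry an activating mutation of CTNNB1, which keeps the pathway active. ARID1A belongs to the SWI/SNF complex, which moves nucleosomes. The corepressor TRIM28 recruits SETDB1, the enzyme that writes H3K9me3, the histone mark of heterochromatin.

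Each library was called by the authors against input and against IgG, which gave 20 lists. The input lists held 11374 to 203714 peaks, and those against IgG 23293 to 314688. Peaks with a q of at most 0.05 are called strong. The input lists held between 15 strong peaks (unmodified H3K9me3) and 37702 (shCtrl SETDB1), so the lists differ widely in what they can show. The fold of a peak is the authors' own enrichment at its summit over the local background, and it was used within a list. The summit of the median peak held 5 to 12 sequenced fragments, so a single weak peak carries little weight. Peak lists hold no expression values, so markers of the cell line could not be checked as levels. No ARID1A library of shARID1A cells is analysed here. Libraries are named by their labels, and for 2 of them the overlap of strong peaks with other lists is given here. Of the 22 strong peaks of the library labelled shCtrl H3K9me3 in the member genes, 7 met a peak of shARID1A H3K9me3, 18 met one of unmodified ARID1A and 0 met one of unmodified H3K9me3, a list with 21 peaks in the members. Over all protein-coding genes 569, 2473 (60.8%) and 49 (1.21%) of 4066 strong peaks did. Of the 63 strong peaks of the library labelled shCtrl SETDB1, 33 met unmodified ARID1A, 13 met shARID1A H3K9me3 and 2 met shARID1A SETDB1, against 16.8%, 26.7% and 7.28% over all genes. Whether these labels are right was not tested.

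The promoters of members with a strong peak over the gene's start in any list are shown, to place the peaks described below on sequence. RefSeq promoter sequence (250 bases before to 50 bases after the start, build GRCh38.p14) was matched by symbol for 21 of the 38 members. Capitals mark matches on either strand to the TCF/LEF letters CTTTGAT or CTTTGAA, the CDX letters TTTATNG or the GC box GGGCGG, and all other bases are in lower case.
TCF7L2, chr10:112949997-112950296, plus strand: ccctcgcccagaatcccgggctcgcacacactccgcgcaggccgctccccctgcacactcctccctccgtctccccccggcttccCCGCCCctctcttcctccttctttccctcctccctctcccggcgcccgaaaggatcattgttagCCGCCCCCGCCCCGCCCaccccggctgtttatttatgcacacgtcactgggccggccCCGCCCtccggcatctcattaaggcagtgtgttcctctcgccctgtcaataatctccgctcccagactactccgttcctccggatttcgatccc
RNF43, chr17:58417485-58417784, minus strand: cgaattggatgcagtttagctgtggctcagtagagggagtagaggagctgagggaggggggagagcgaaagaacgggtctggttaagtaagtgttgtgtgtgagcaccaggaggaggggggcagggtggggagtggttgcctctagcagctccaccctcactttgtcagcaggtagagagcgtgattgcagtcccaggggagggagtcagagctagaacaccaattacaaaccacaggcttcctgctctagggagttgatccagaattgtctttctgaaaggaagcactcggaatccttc
APC, chr5:112707248-112707547, plus strand: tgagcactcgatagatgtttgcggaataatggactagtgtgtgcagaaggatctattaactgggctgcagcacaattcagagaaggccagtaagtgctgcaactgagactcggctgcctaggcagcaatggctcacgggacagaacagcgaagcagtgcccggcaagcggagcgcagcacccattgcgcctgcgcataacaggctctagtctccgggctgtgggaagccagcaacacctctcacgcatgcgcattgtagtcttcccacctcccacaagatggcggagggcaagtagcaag
DKK1, chr10:52314031-52314330, plus strand: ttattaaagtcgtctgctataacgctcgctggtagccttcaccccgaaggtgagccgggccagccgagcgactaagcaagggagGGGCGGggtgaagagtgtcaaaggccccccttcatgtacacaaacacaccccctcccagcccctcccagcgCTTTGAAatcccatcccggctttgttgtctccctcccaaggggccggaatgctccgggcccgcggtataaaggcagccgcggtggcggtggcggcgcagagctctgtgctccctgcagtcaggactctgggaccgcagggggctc
BCL9, chr1:147541251-147541550, plus strand: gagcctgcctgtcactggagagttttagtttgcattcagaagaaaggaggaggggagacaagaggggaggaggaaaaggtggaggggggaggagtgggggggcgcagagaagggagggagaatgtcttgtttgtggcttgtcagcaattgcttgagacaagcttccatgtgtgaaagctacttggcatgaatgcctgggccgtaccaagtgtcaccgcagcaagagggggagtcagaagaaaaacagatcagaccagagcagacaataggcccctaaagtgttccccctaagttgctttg
CDX2, chr13:27969266-27969565, minus strand: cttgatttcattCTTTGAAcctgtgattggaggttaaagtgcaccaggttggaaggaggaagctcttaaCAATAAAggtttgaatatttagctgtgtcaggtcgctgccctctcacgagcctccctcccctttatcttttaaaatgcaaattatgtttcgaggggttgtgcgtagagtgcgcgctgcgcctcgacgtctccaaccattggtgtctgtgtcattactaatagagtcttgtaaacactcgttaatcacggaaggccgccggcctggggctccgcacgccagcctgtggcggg

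The RNF43 start was covered by a peak in 10 of the 20 lists, 7 of them strong. The TCF7L2 start was covered in 5 lists, all strong, but only by shCtrl SETDB1 against input. The TCF7L2 window held 5 GC boxes, some of which run into each other, and a GC content of 65.7%, while the RNF43 window held none of the searched letters at a GC content of 54.3%. TCF/LEF letters stood in the promoters of SP5 (3 matches), DKK1 and CDX2, that is in 3 of the 21 members, against 5.49% of 15812 coding promoters of the same length. CDX letters stood in those of SP5, TCF7, CDX2 and KLF5, against 8.11% of all promoters. The AP-1 letters TGANTCA stood in the OLFM4 window alone, against 5.76% of all promoters, and GC boxes in 13 of the 21 members, against 58.5%. These matches are letters in a window and not binding sites.

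Of the 38 members, 37 held a peak in at least 1 input list, and 24 held a strong one (16 WNT and 8 intestinal genes). The shares of all genes over the 10 lists together are not given, so these counts are not compared with a background. In single input lists up to 72.4% of all genes held a peak (shARID1A TRIM28) and up to 43.5% a strong one (shCtrl SETDB1). OLFM4, which encodes a secreted crypt protein, had no peak in any input list and 1 peak each in shARID1A SETDB1 and shCtrl H3K9me3 against IgG. Peaks were unevenly spread. TCF7L2 held 140 peaks over the 10 input lists, RNF43 112, GSK3B 102, HNF4G 81, ZNRF3 78 and CDH17 70, and each of these 6 genes had a peak in every library. APC had a peak in every library too, 42 in all. Members differ in length, from 2.09 kb (ASCL2) to 273 kb (GSK3B), so these counts do not rank the genes. The median length was 65.2 kb for WNT genes, 28.1 kb for intestinal genes and 24.2 kb for all protein-coding genes, so that longer genes also enter the shares given below. Some peaks lie where a member overlaps another gene, as RNF43 does with SUPT4H1 and TSPOAP1-AS1, and were counted for the member.

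**Figure D1:**
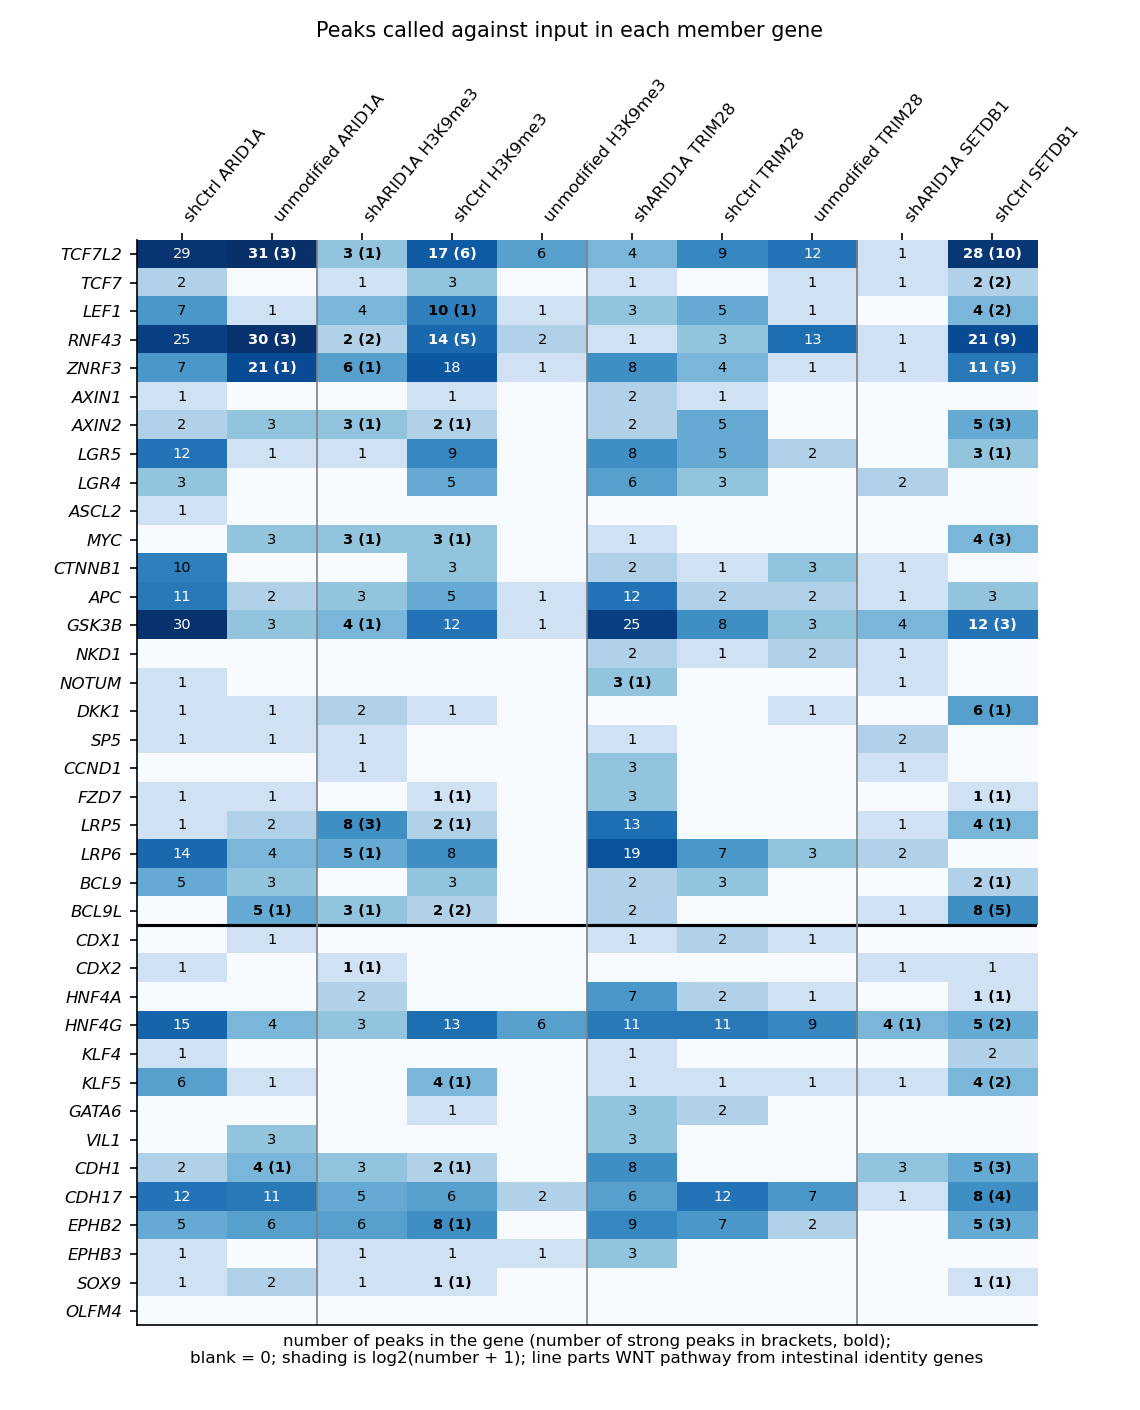
Number of peaks called against input in each of the 38 member genes (rows) and 10 libraries (columns, grouped by antibody), with strong peaks in brackets. TCF7L2 and RNF43 are among the 3 members with the most peaks in both ARID1A libraries and in shCtrl H3K9me3 and shCtrl SETDB1, and OLFM4 is blank throughout.

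Member genes held ARID1A peaks more often than protein-coding genes at large, and by how much depended on the control in unmodified cells. ARID1A had a peak in 20 of the 24 WNT genes and 9 of the 14 intestinal genes in shCtrl cells, against 52.4% of all protein-coding genes. In unmodified cells it had a peak in 16 and 8 of them, against 25.8%, and with peaks called against IgG in 19 and 11, against 44.2%. H3K9me3 was found in 16 and 8 genes in shARID1A cells (46.8% of all genes), 19 and 8 in shCtrl cells (46.8%), and 6 and 3 in unmodified cells (13.6%). TRIM28 was found in 22 and 11 genes in shARID1A cells (72.4%), 14 and 7 in shCtrl cells (40.4%), and 12 and 6 in unmodified cells (28.4%). For SETDB1 a peak was found in 15 and 5 genes in shARID1A cells (43.7%) and in 15 and 9 in shCtrl cells (58.7%). The intestinal genes with SETDB1 in shARID1A cells were the only entry below the share of all genes in these input lists.

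**Figure D2:**
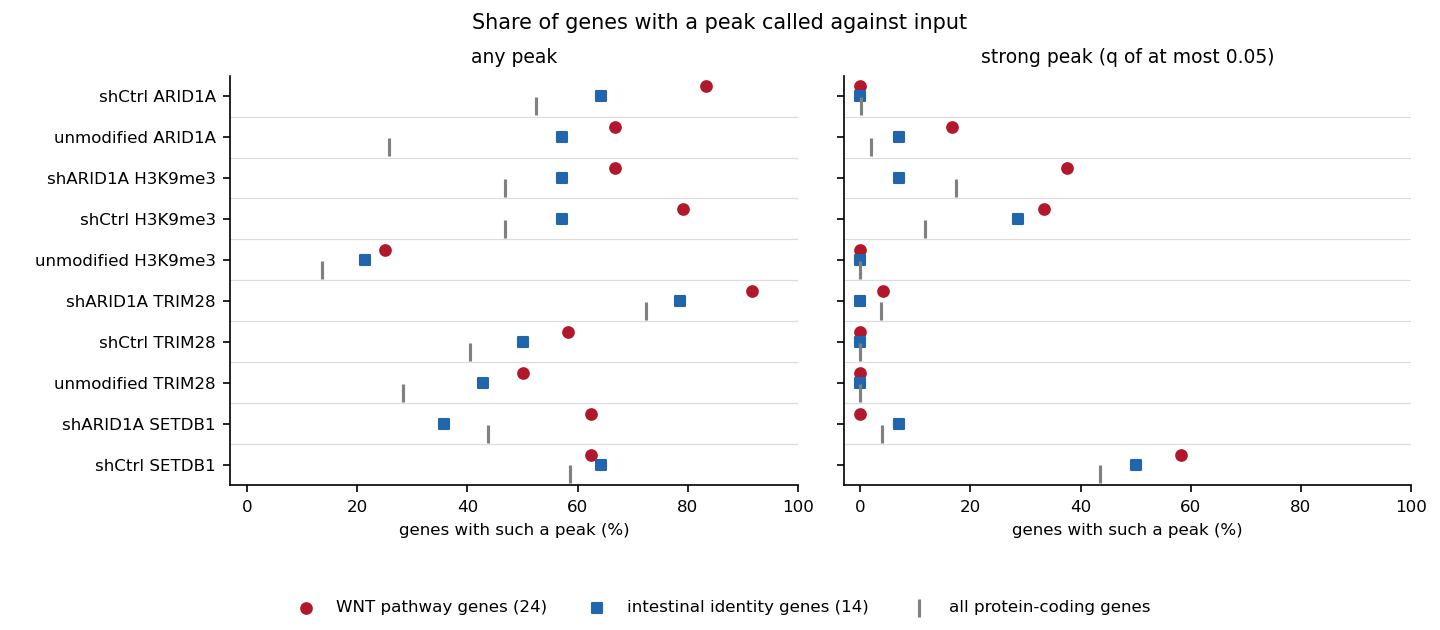
Share of genes (%) with any peak (left) or a strong peak (right) called against input, for WNT genes (circles), intestinal genes (squares) and all protein-coding genes (grey ticks), with the 10 libraries down the page. Any-peak shares lie right of the tick in every library except shARID1A SETDB1, where 35.7% of intestinal genes stand against 43.7% of all genes.

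Per length, ARID1A peaks in shCtrl cells were 80.8 per Mb in WNT genes and 52.7 per Mb in intestinal genes, against 46.1 per Mb over all protein-coding genes. In unmodified cells the densities were 55.2 and 38.3 per Mb, against 13.1. With peaks called against IgG they were 57.6 and 39.5 per Mb, against 22.7, so that the density in the 38 members was 2.30 times that over all genes, where it was 3.82 times with input. In shCtrl cells no member held a strong ARID1A peak, and 0.0851% of all genes did. Strong ARID1A peaks in unmodified cells lay in TCF7L2 (3), RNF43 (3), ZNRF3 (1), BCL9L (1) and CDH1 (1), that is in 4 WNT genes and 1 intestinal gene, against 1.96% of all genes. The members with the most ARID1A peaks were GSK3B (30 peaks), TCF7L2 and RNF43 in shCtrl cells, and TCF7L2, RNF43 and ZNRF3 in unmodified cells. In unmodified cells TCF7L2, RNF43 and ZNRF3 held most of the 112 ARID1A peaks of the WNT genes. The WNT density given above for unmodified cells therefore rests largely on these 3 genes. TCF7L2, the main TCF factor of the intestine, had 29 ARID1A peaks in shCtrl and 31 in unmodified cells, where it stood 36th of 19974 genes by number of peaks. RNF43 had 25 in shCtrl and 30 in unmodified cells, where it stood 38th. ZNRF3, the paralogue of RNF43, had 7 in shCtrl and 21 in unmodified cells, where it stood 86th. These places are by count, without allowance for length. TCF7L2, RNF43 and ZNRF3 are 217, 65.0 and 174 kb long, beside a median of 24.2 kb for all protein-coding genes.

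In the shARID1A libraries TCF7L2 had 3 H3K9me3, 4 TRIM28 and 1 SETDB1 peaks, and RNF43 had 2, 1 and 1.

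The surroundings of these 3 genes differed. In shCtrl cells the densities in the gene and around it were 373 and 42.0 per Mb for RNF43, 39.8 and 11.5 for ZNRF3, and 132 and 104 for TCF7L2. In unmodified cells RNF43 had 448 ARID1A peaks per Mb in the gene, against 43.0 per Mb in the 1 Mb on either side. ZNRF3 had 119 per Mb in the gene, that is 21 peaks, against 4 peaks in all in the 1 Mb on either side. TCF7L2 had 141 per Mb in the gene and 109 per Mb around it, so the whole region was dense. CDH17, which encodes an intestinal cadherin, had 119 per Mb in the gene and 71.1 per Mb around it. In the unmodified ARID1A list the local background of the peaks around TCF7L2, RNF43 and CDH17 was 1.34, 1.36 and 1.40 times the list's median. Around ZNRF3 it was 0.941 times. In the shCtrl ARID1A list the local background was 1.48 times the median around TCF7L2, 1.68 around RNF43 and 1.08 around ZNRF3. The part of this background in the number of peaks was not tested. In shCtrl cells 16 WNT and 6 intestinal genes were denser in ARID1A peaks than their surroundings, against 38.4% of all genes, and in unmodified cells 12 and 7, against 19.3%.

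**Figure D3:**
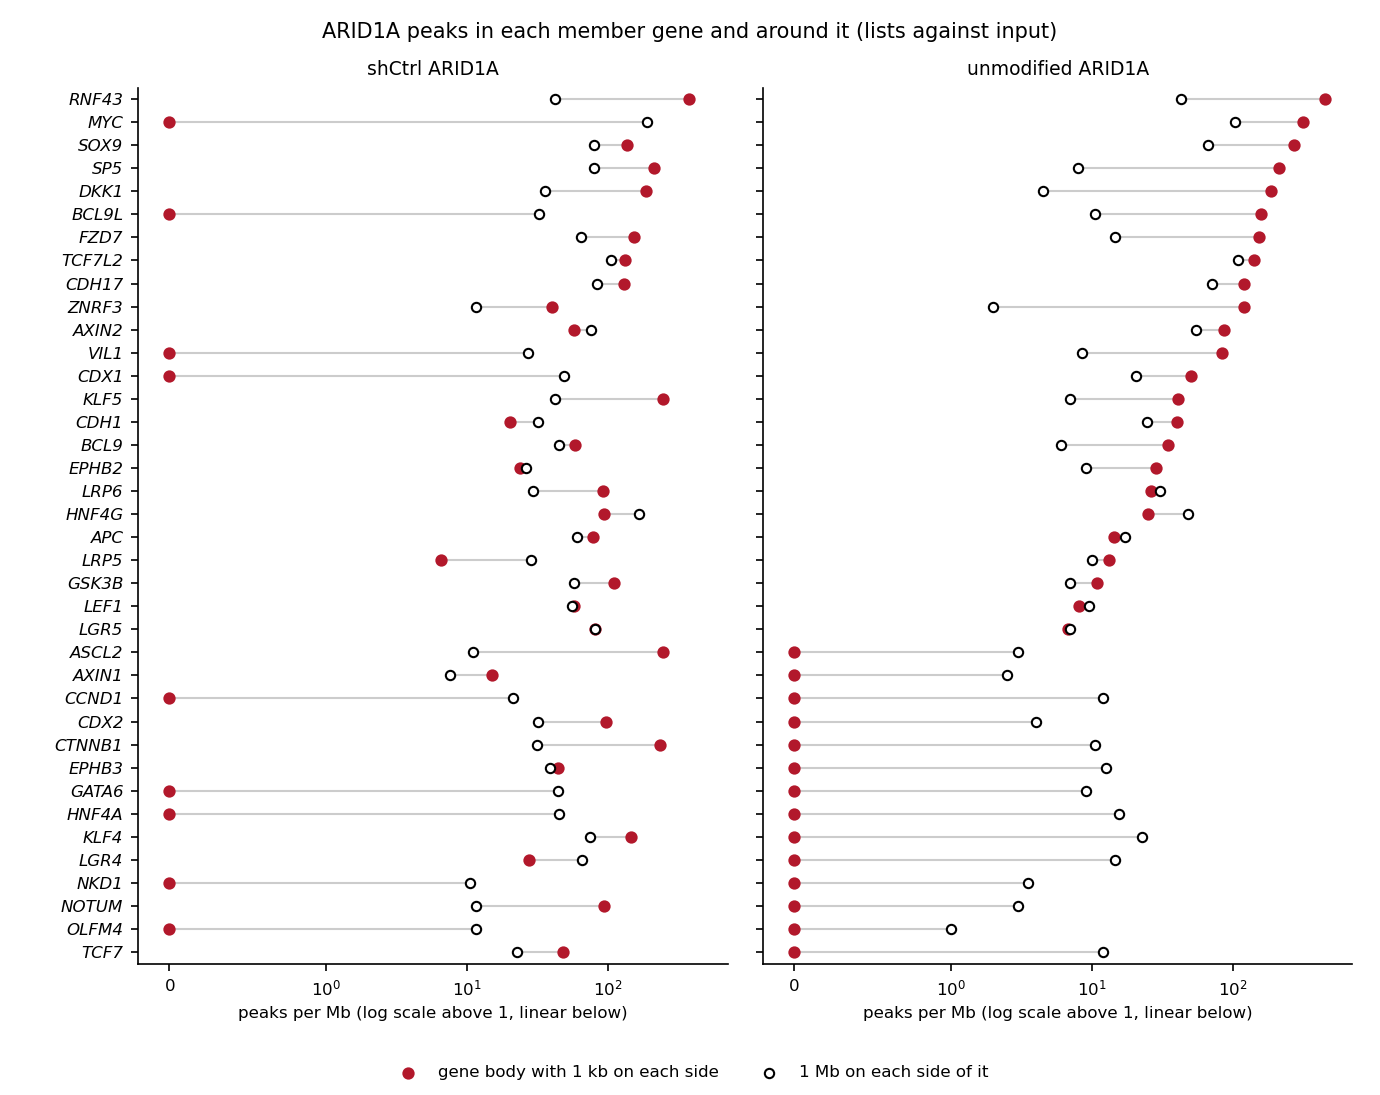
ARID1A peaks per Mb in each member gene with 1 kb on each side (filled) and in the 1 Mb on either side (open), on an axis that is logarithmic above 1 and linear below, in shCtrl (left) and unmodified cells (right), ordered by the density in the gene in unmodified cells. RNF43 lies far right of its surroundings in both libraries, ZNRF3 mostly in unmodified cells, and TCF7L2 close to its surroundings.

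In RNF43 the ARID1A peaks lay towards the start of the gene, which is 65.0 kb long. The 25 peaks of shCtrl cells covered 7.97 kb (11.9% of the gene with its 1 kb ends), with summits between -0.294 and 52.3 kb from the start, where negative is before it. All 30 peaks of unmodified cells had their summits between -0.366 and 42.2 kb from the start, and together they covered 27.2 kb (40.5%). In TCF7L2 the 29 peaks of shCtrl cells covered 8.57 kb, or 3.91%, and the 31 of unmodified cells 24.7 kb, or 11.2%. Over the genome the median ARID1A peak was 245 bp wide in the shCtrl list and 345 bp in the unmodified list. Of the shCtrl ARID1A peaks in members, 18.3% (95% interval 13.3% to 24.2%, exact, counting error only) met an unmodified ARID1A peak, against 4.44% over all protein-coding genes. Most of the peaks that met lay in RNF43 and TCF7L2, and the interval does not allow for such grouping. Unmodified ARID1A peaks were 3.82 times as dense in the members as over all genes. The part of this density in the share was not tested. In the other direction 19.4% (13.3% to 26.9%) of 144 unmodified ARID1A peaks in members were found again in shCtrl cells, against 14.3%, which lies inside the interval. With both lists called against IgG it was 28.0% (21.0% to 35.9%), against 18.9%, which lies outside the interval.

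Peaks of different libraries were merged where they overlapped, which gave 785 sites in the member genes. Of these, 627 (79.9%) belonged to 1 library and 30 to 4 or more. Sites over all protein-coding genes are not given, so these counts have no background beside them. RNF43 held 10 of the 30, TCF7L2 6, ZNRF3 3, AXIN2 and MYC 2 each, and BCL9L, CDH17, CDX2, EPHB2, FZD7, GSK3B and LEF1 1 each. With the libraries labelled shCtrl H3K9me3 and shCtrl SETDB1 left out, 6 sites were in 4 or more of the remaining 8 libraries. All 6 lay in RNF43 or TCF7L2. Then 13 members rather than 24 held a strong peak. The shares over all genes are not given for these counts either. Libraries of one cell state are assumed to have a common control, and overlap within a state is therefore descriptive.

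The site in most libraries within TCF7L2 was chr10:113086312-113088302, 137 kb downstream of the gene's start. It had a fold of 3.78 in shARID1A H3K9me3 and 2.38 in shARID1A TRIM28, with 31 and 18 fragments at the summits. In shCtrl cells the folds were 2.47 for ARID1A, 11.7 for H3K9me3, 2.10 for TRIM28 and 10.7 for SETDB1, with 11, 53, 8 and 50 fragments. In unmodified cells ARID1A had a fold of 5.03 with 32 fragments. The peaks of shARID1A H3K9me3, shCtrl H3K9me3, shCtrl SETDB1 and unmodified ARID1A were strong, and the others were not. No SETDB1 peak of the shARID1A input list lay there.

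The site in most libraries within RNF43 was chr17:58388698-58392946, with its middle 26712 bp downstream of the start. Its fold was 3.51 in shARID1A H3K9me3 (22 fragments). In shCtrl cells it was 2.63 for ARID1A, 9.77 for H3K9me3, 3.11 for TRIM28 and 14.9 for SETDB1, with 9, 39, 11 and 62 fragments. In unmodified cells it was 3.48 for ARID1A and 2.36 for TRIM28, with 19 and 11 fragments. The SETDB1 fold of 14.9 was the highest of any member within the shCtrl SETDB1 list. The site over the RNF43 start, chr17:58416420-58418333, was listed in 5 libraries: shCtrl ARID1A (1.78), shCtrl H3K9me3 (3.26), shCtrl SETDB1 (7.35), unmodified ARID1A (4.65) and unmodified TRIM28 (3.23). No shARID1A library had a peak at this start against input, but shARID1A H3K9me3 had a strong one there against IgG, with a fold of 4.97.

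**Figure D4:**
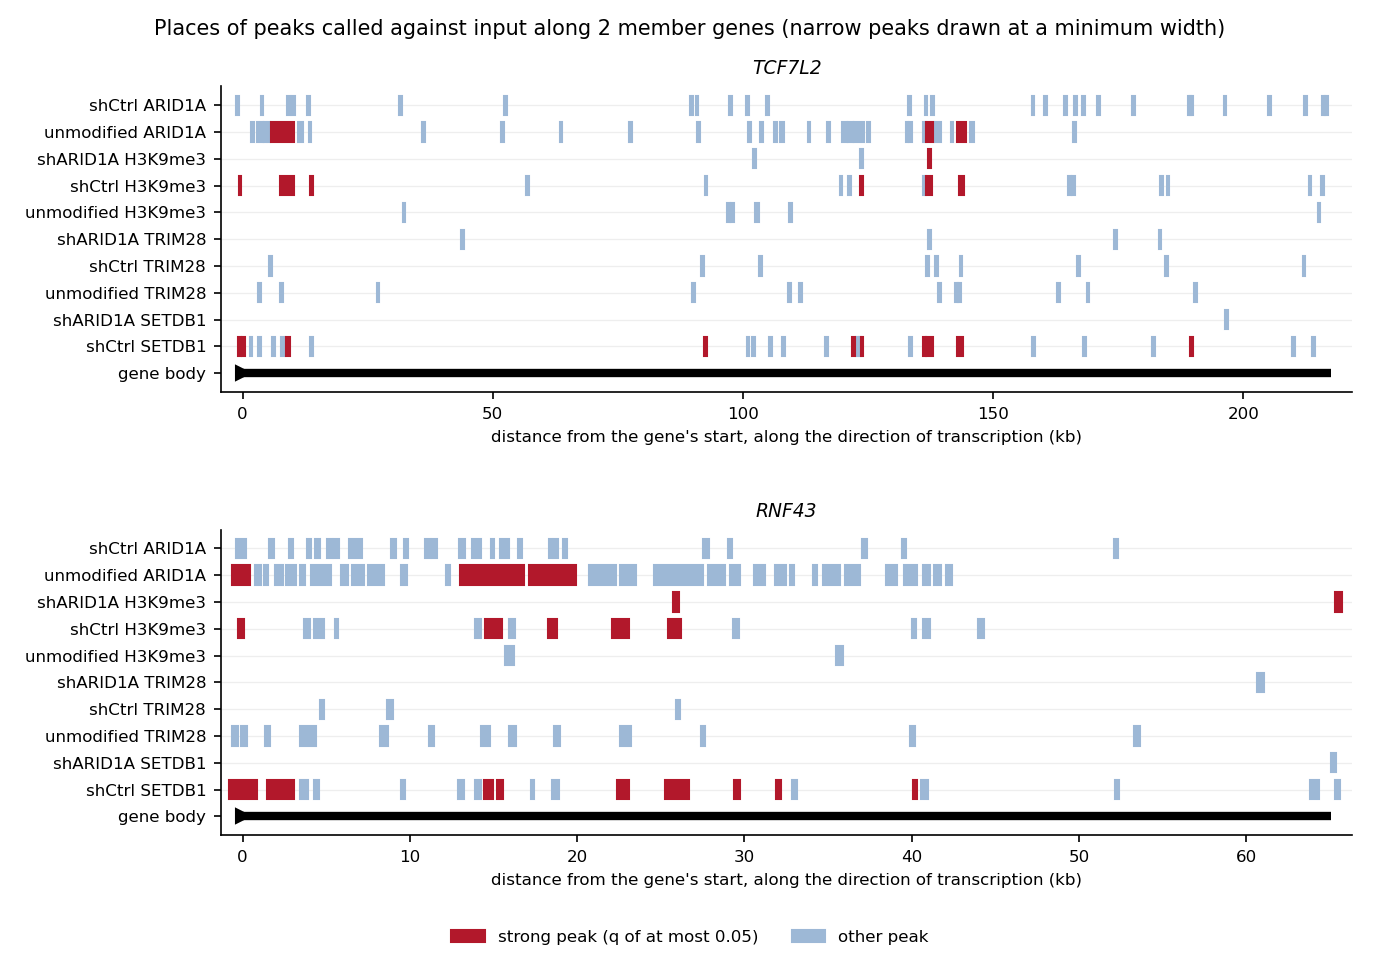
Places of peaks called against input along TCF7L2 and RNF43, by distance from the gene's start in kb, with strong peaks in red and others in blue, in 10 libraries. Strong peaks of shCtrl H3K9me3, shCtrl SETDB1 and unmodified ARID1A share places near 137 and 144 kb in TCF7L2, and ARID1A peaks of unmodified cells lie in the first 42.2 kb of RNF43.

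Other sites in several libraries lay at pathway genes with other roles. In GSK3B, the kinase of the destruction complex, chr3:120039625-120040846 was listed in all 3 shARID1A libraries. The folds were 5.80 for H3K9me3 (strong), 3.47 for TRIM28 and 3.57 for SETDB1, and shCtrl SETDB1 had 7.36 (strong) while shCtrl H3K9me3 and TRIM28 had none there. In MYC, the growth regulator, the site chr8:127741447-127744164, across the right end of the gene, had folds of 2.79 in shARID1A H3K9me3, 7.17 in shCtrl H3K9me3, 6.09 in shCtrl SETDB1 and 3.30 in unmodified ARID1A, all but the last strong. AXIN2, a scaffold of the destruction complex and itself a WNT target, had a site with 3.56 in shARID1A H3K9me3, 3.26 in shCtrl H3K9me3, 4.06 in shCtrl SETDB1 and 2.16 in unmodified ARID1A, the first 3 of them strong. The 3 sites of ZNRF3 in 4 libraries each lay side by side, with their middles between 93.4 and 96.0 kb from the gene's left end.

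SETDB1 was the antibody whose strong peaks in member genes differed most between shARID1A and shCtrl cells, as they did over all genes. In shARID1A cells 0 of 24 WNT genes and 1 of 14 intestinal genes held a strong SETDB1 peak, against 3.91% of all genes. In shCtrl cells 14 and 7 did, against 43.5%. The differences of -58.3 and -42.9 percentage points stand beside -39.6 over all genes, of which 1.28% had a strong peak in shARID1A cells alone and 40.8% in shCtrl cells alone. The gene with a strong peak in both states was HNF4G, whose peak in shARID1A cells (chr8:75407012-75407492, fold 4.00, 13 fragments) did not meet its strong shCtrl peaks (highest fold 7.05). At the authors' threshold the WNT genes were even, with 15 of 24 in each state, and 7 genes had SETDB1 in shARID1A cells alone: CCND1, CTNNB1, LGR4, LRP6, NKD1, NOTUM and SP5. Another 7 had it in shCtrl cells alone: AXIN2, BCL9, DKK1, FZD7, LEF1, LGR5 and MYC. Of the intestinal genes none had it in shARID1A cells alone and 4 in shCtrl cells alone (EPHB2, HNF4A, KLF4 and SOX9). Among all genes 10.0% had SETDB1 in shARID1A cells alone and 25.0% in shCtrl cells alone. Against IgG more members had SETDB1 in shARID1A than in shCtrl cells, with 22 WNT and 14 intestinal genes in shARID1A cells (83.6% of all genes) and 19 and 11 in shCtrl cells (71.7%). Of the shCtrl SETDB1 peaks in members, 2.05% of 146 (0.426% to 5.89%) were found again in shARID1A cells, against 4.59% over all genes, which lies inside the interval.

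H3K9me3 showed no such one-sided difference in the WNT genes. Strong H3K9me3 peaks lay in 9 WNT genes in shARID1A cells (17.4% of all genes) and in 8 in shCtrl cells (11.7%), with 6 genes in both (5.22% of all genes). GSK3B, LRP6 and ZNRF3 had one in shARID1A cells alone, and FZD7 and LEF1 in shCtrl cells alone. In the intestinal genes 1 had a strong peak in shARID1A cells (CDX2) and 4 in shCtrl cells (CDH1, EPHB2, KLF5 and SOX9), with none in both. Over all genes 12.2% had a strong peak in shARID1A cells alone and 6.46% in shCtrl cells alone. At the authors' threshold CCND1, SP5, CDX2 and HNF4A had H3K9me3 in shARID1A cells alone (15.7% of all genes) and AXIN1, BCL9, CTNNB1, FZD7, LGR4, GATA6 and KLF5 in shCtrl cells alone (15.7%). TCF7L2 had 1 strong peak in shARID1A and 6 in shCtrl cells, and RNF43 had 2 and 5. LRP5, a WNT coreceptor, went the other way with 3 in shARID1A and 1 in shCtrl cells, and its highest folds were 5.86 and 6.82 at different places. Of the 72 shARID1A H3K9me3 peaks in members, 16.7% (8.92% to 27.3%) met a shCtrl H3K9me3 peak, against 6.49% over all genes. A shCtrl SETDB1 peak was met by 29.2% (19.0% to 41.1%) of them, against 28.1%. These intervals do not allow for peaks grouped in a few genes. The shCtrl H3K9me3 list was 1.47 times as dense in the members as over all genes, and the shCtrl SETDB1 list 1.60 times. The part of this density in the shares was not tested. In unmodified cells H3K9me3 had 21 peaks in the members and no strong one (0.0100% of all genes).

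**Figure D5:**
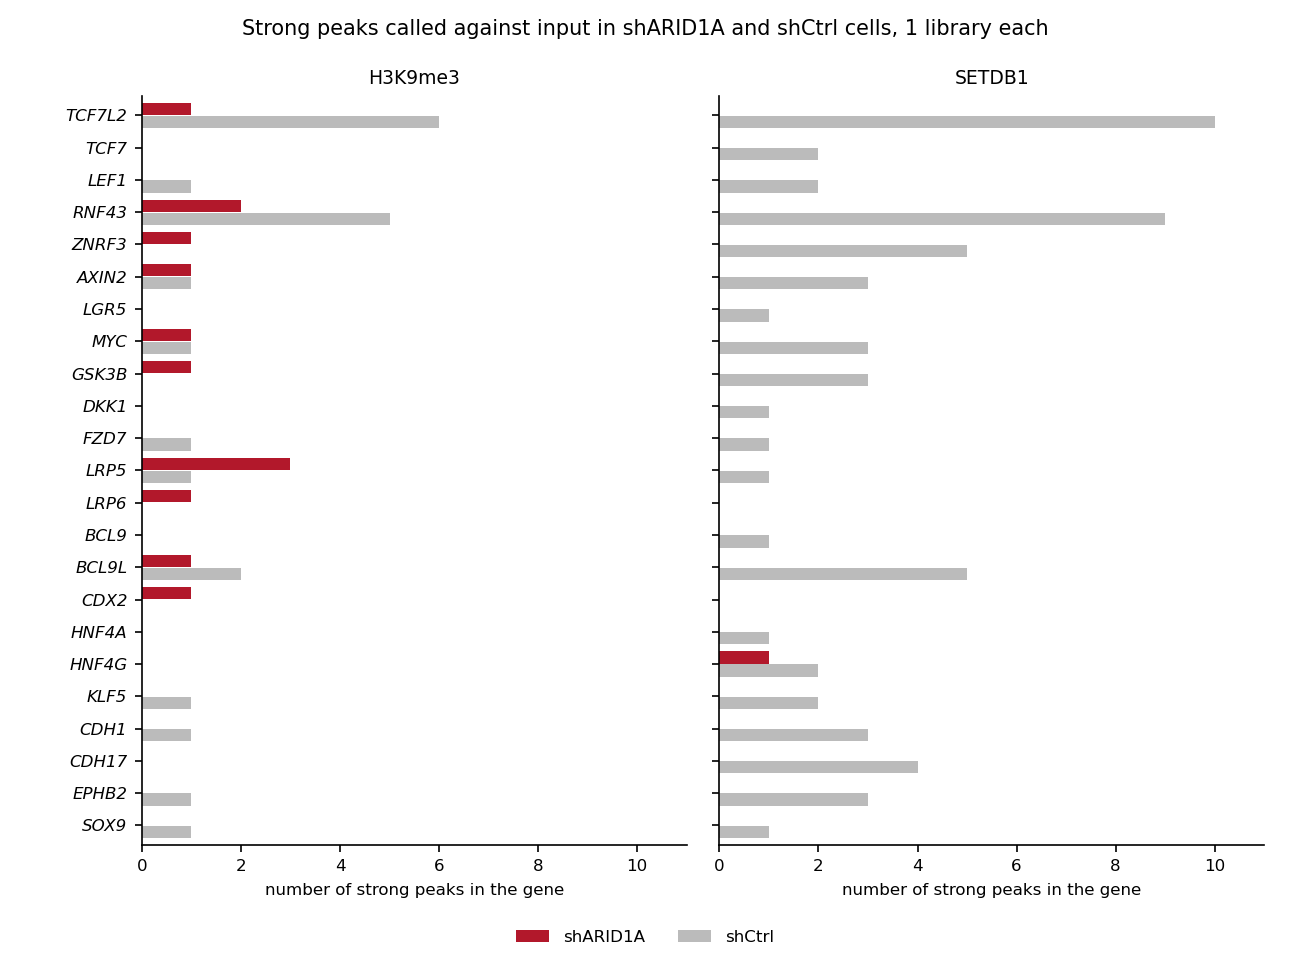
Number of strong peaks called against input in shARID1A (red) and shCtrl cells (grey), for H3K9me3 (left) and SETDB1 (right), in the members with at least 1 such peak in these 4 libraries. SETDB1 bars are almost all shCtrl, with HNF4G the exception, while H3K9me3 bars are found in both cell states.

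TRIM28 differed between the cell states about as much as over all genes. It was listed in shARID1A cells alone in 8 WNT genes (BCL9L, CCND1, FZD7, LRP5, MYC, NOTUM, SP5 and TCF7) and 4 intestinal genes (CDH1, EPHB3, KLF4 and VIL1), and in shCtrl cells alone in none. Among all genes 35.7% had it in shARID1A cells alone and 3.77% in shCtrl cells alone. The differences of 33.3 and 28.6 percentage points stood beside 32.0 over all genes. With only the 10000 top peaks of each list the WNT difference turned to -12.5 points. The shARID1A TRIM28 list was the longest against input, and per Mb it held 60.6 peaks in WNT genes and 63.5 in intestinal genes, below the 70.5 over all genes. A single TRIM28 peak in members was strong, where 3.88% of all genes held one in shARID1A cells, 0.0350% in shCtrl cells and 0.0250% in unmodified cells. It lay in NOTUM, an enzyme that inactivates WNT ligands, at chr17:81959550-81960324 in shARID1A cells (fold 4.24, 8 fragments). That site also held peaks of shARID1A SETDB1 (3.16) and shCtrl ARID1A (2.46). In unmodified cells 27.7% (17.3% to 40.2%) of the 65 TRIM28 peaks in members met an ARID1A peak, against 6.56% over all genes. RNF43 and TCF7L2 held 13 and 12 of the 65, and most of the peaks that met ARID1A lay in these genes. ARID1A peaks of unmodified cells covered 40.5% of RNF43 and 11.2% of TCF7L2 with their ends. The share therefore does not describe the other members. With ARID1A called against IgG, so that the pair did not share its control, the share of these TRIM28 peaks was 18.5% (9.92% to 30.0%), against 4.38% over all genes. The share of unmodified ARID1A peaks that met TRIM28 called against IgG is given in the closing section.

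Among the other WNT genes, receptors and coreceptors had strong peaks in different libraries. FZD7, a frizzled receptor, had 1 strong peak each in shCtrl H3K9me3 (4.79) and shCtrl SETDB1 (4.94), at the same site just beyond the right end of the gene. LRP6, the other coreceptor, led the WNT genes in shARID1A SETDB1 with a fold of 4.24 that was not strong, and had 4.22 in shARID1A H3K9me3, which was. LGR5, the R-spondin receptor that marks crypt stem cells, had a strong peak in shCtrl SETDB1 (4.22) and 12 peaks in shCtrl ARID1A. LGR4, its relative, had 19 peaks in all and none strong. Among nuclear factors, BCL9L had strong peaks in 4 libraries: shARID1A H3K9me3 (3.61), shCtrl H3K9me3 (4.36), shCtrl SETDB1 (6.94) and unmodified ARID1A (3.77). LEF1 had strong peaks in shCtrl H3K9me3 (3.89) and shCtrl SETDB1 (4.97), TCF7 in shCtrl SETDB1 (5.50) and BCL9 in shCtrl SETDB1 (3.79). DKK1, a secreted inhibitor of LRP coreceptors, had one in shCtrl SETDB1 (4.28). AXIN1, APC, LGR4, CTNNB1, NKD1, SP5, CCND1 and ASCL2 had none in any input list. ASCL2, a stem cell transcription factor, had a single peak, in shCtrl ARID1A (2.88).

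Intestinal identity genes held 296 of the 1112 member peaks. CDH1, which encodes E-cadherin, had strong peaks in shCtrl H3K9me3 (5.48), shCtrl SETDB1 (6.93) and unmodified ARID1A (4.65), and a site at chr16:68743573-68745273 was strong in all 3. EPHB2, a guidance receptor that positions cells along the crypt, had folds of 7.52 in shCtrl SETDB1 and 5.08 in shCtrl H3K9me3, both strong, at a site also listed in shCtrl ARID1A, shCtrl TRIM28 and unmodified ARID1A. SOX9, a crypt transcription factor, had 1 strong peak each in shCtrl H3K9me3 (4.21) and shCtrl SETDB1 (6.29), at a site across the right end of the gene. KLF5, a factor of proliferating crypt cells, had the highest ARID1A fold of any member in shCtrl cells (4.74, not strong) and strong peaks in shCtrl H3K9me3 (5.02) and shCtrl SETDB1 (6.46). HNF4A had 1 strong peak in shCtrl SETDB1 (4.56), and CDH17 had 4 strong peaks there (highest 5.65). CDX1, KLF4, GATA6, VIL1, EPHB3 and OLFM4 had no strong peak in an input list.

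CDX2, the intestinal homeobox factor, had 4 peaks in the 10 input lists, all within 1 kb of its start and 2 of them across it. The site chr13:27969029-27969866 had folds of 3.98 in shARID1A H3K9me3 (strong, 9 fragments), 3.16 in shARID1A SETDB1 (6), 3.90 in shCtrl ARID1A (8) and 3.18 in shCtrl SETDB1 (7). No TRIM28 list against input and no input list of unmodified cells had a peak there. Against IgG the H3K9me3 peak of shARID1A cells was strong again, with a fold of 4.55. The right end of the H3K9me3 peak lies within the printed CDX2 promoter window.

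Within 1 kb of a gene's start, where RefSeq gives one (13 WNT and 8 intestinal genes), ARID1A had a peak in 6 WNT and 2 intestinal genes in shCtrl cells, against 20.4% of all genes. In unmodified cells it had 2 (RNF43 and SP5) and 0, against 3.71%. SETDB1 had 1 and 1 in shARID1A cells (15.8%) and 6 and 2 in shCtrl cells (30.2%). H3K9me3 had 3 and 1 in shARID1A cells (13.5%), 3 and 1 in shCtrl cells (6.53%) and none in unmodified cells (0.734%). TRIM28 had 4 and 3 in shARID1A cells (26.5%), 0 and 2 in shCtrl cells (3.37%) and 1 and 0 in unmodified cells (2.94%). Beyond RNF43, TCF7L2, BCL9 and CDX2, a strong peak covered the start itself in the printed promoters only against IgG. This held for APC (4.04) and DKK1 (5.10), both in shARID1A H3K9me3. Within 1 kb of its start, DKK1 also had a strong shCtrl SETDB1 peak against input.

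Other genes of the pathway and of the intestine were counted in 3 further lists. In unmodified cells ARID1A peaks lay in 7 of 25 WNT ligand and secretion genes (28.0%), 10 of 41 further receptors, transducers and inhibitors (24.4%) and 8 of 35 further intestinal genes (22.9%), beside the 25.8% of all genes. These shares lie near the background, while the densities were 13.7, 11.6 and 29.1 per Mb, beside 13.1. Strong SETDB1 peaks in shCtrl cells lay in 11, 15 and 8 of them, or 44.0%, 36.6% and 22.9%, beside 43.5%. Within the shCtrl SETDB1 list the highest folds among the ligands were those of WNT3A (13.9), WNT7A (12.7) and WNT9A (9.26). DVL3, a transducer that acts just below frizzled, had a strong SETDB1 peak in both states, with a fold of 9.14 in shARID1A and 8.77 in shCtrl cells. CSNK1A1, a kinase of the destruction complex, had 7.79 in shCtrl SETDB1, and CTNNBIP1, an inhibitor of beta-catenin, had 6.45 in shCtrl H3K9me3. Of the intestinal genes, CD44 and REG4 had 7.20 each in shCtrl SETDB1.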

How the data were processed

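ChIP-seq peak lists of 10 libraries were used, 1 per group of cell state and antibody, and the 6 control samples have no list of their own. Per the submitters' processing notes, the build was GRCh38 (hg38) and the tools named are MACS2 2.2.7.1, Bowtie2 2.2.5, FastQC 0.11.9, ChIPseeker and deepTools 3.5.1, whose roles are not given. The deposited lists give a fold enrichment per peak and −log10 p and q values, which are the authors' own. Calls were made per library, and the control of each list was read from its name. The lists contain peaks down to a p of about 0.05, so q of at most 0.05 was used for strong peaks. Titles with CTR were read as shCtrl. The labels name different antibody products in different fields for H3K9me3 and TRIM28.

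Python 3.11.15, numpy 2.4.6, pandas 2.3.3, scipy 1.17.1 and matplotlib 3.10.9 were used. Peaks were joined to RefSeq genes (GRCh38.p14) by 1 bp of overlap, on chromosomes 1 to 22 and X. Input lists are the main ones. Whole fragments at summits were recovered from fold and p, at 1 scale per list. The scale was chosen on up to 400 sampled peaks with a fold below 4. At that scale at least 97.0% of the sampled peaks of each list came out whole within 0.0005 on the −log10 p scale. In the input lists it was at least 99.8%. The depth of the libraries is unknown. Intervals are exact Clopper-Pearson intervals of 95% and cover counting error only. With 1 library per group there is no test between cell states. The joins were tested on simulated data. Values are given in full for members with a strong peak in an input list and for the 3 of each set with the highest fold in each input list. A single gene of the further intestinal list is not reported here, while others of that list are. Members and lists were chosen with earlier results of these data known. Alternatives were the IgG lists, strong peaks, the 10000 top peaks, peaks called against both controls, other gene windows and a 50% overlap.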

Additional observations from a re-analysis of the deposited data

How the results depend on the processing

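No paired analysis was possible because each group has 1 library and no result comes from a test. The gene window without its extension moved no share of genes beyond its counting interval. In the differences of shares of genes, the WNT TRIM28 difference (shARID1A minus shCtrl, 33.3 points) turned to -12.5 points with the 10000 top peaks (2.75 over all genes) and was 4.17 with strong peaks (3.84). With strong peaks the SETDB1 difference was -58.3 (WNT) and -42.9 (intestinal), beside -39.6 over all genes, and the WNT ARID1A difference (shCtrl minus unmodified) -16.7, beside -1.88. With the 10000 top peaks the intestinal differences shARID1A minus shCtrl were -35.7 (H3K9me3) and -14.3 (TRIM28), beside -0.365 and 2.75 over all genes, and shCtrl minus unmodified gave 20.8 (WNT H3K9me3) and -7.14 (intestinal TRIM28), beside 2.61 and -0.140. Against IgG the intestinal SETDB1 difference was 21.4, and shCtrl minus unmodified gave 57.1 (intestinal H3K9me3) and 28.6 (intestinal TRIM28), beside 11.9, 51.7 and 26.7 over all genes. Peaks called against both controls gave 70.8 (WNT H3K9me3), 57.1 and 28.6, beside 34.1, 34.1 and 19.5 over all genes, and the 10 kb extension 42.9 and 14.3, beside 41.9 and 15.1. The cause was not tested. Peaks found again in the other state moved against IgG to 21.2% (shCtrl H3K9me3 in shARID1A), 26.9% (shCtrl SETDB1 in shARID1A) and 28.0% (unmodified ARID1A in shCtrl). Over all genes these shares were 14.1%, 27.3% and 18.9%. With strong peaks the member shares were 18.2%, 0% and 0%, beside 3.71%, 1.52% and 0.176% over all genes. A 50% overlap gave 13.2% for ARID1A, beside 10.2%. Density per Mb in members against IgG was 129 (H3K9me3), 116 (TRIM28) and 133 (SETDB1) in shARID1A cells, beside 103, 110 and 114 over all genes. In shCtrl cells it was 187 (ARID1A), 122 (H3K9me3), 101 (TRIM28) and 70.1 (SETDB1), beside 132, 88.6, 95.1 and 46.7. Strong peaks gave 4.54, 0.349 and 0.349 in shARID1A cells, beside 3.84, 0.633 and 0.610. In shCtrl cells they gave 0, 7.68, 0 and 22.0, beside 0.0128, 3.13, 0.00600 and 14.8. In unmodified cells they gave 3.14 (ARID1A), 0 (H3K9me3) and 0 (TRIM28), beside 0.434, 0.00225 and 0.00375. Of the 21 members with a start, those with a peak within 1 kb of it against IgG numbered 14 (H3K9me3), 13 (TRIM28) and 16 (SETDB1) in shARID1A cells, beside 55.2%, 54.1% and 58.0% of all genes. They numbered 17 (ARID1A), 9 (H3K9me3) and 6 (TRIM28) in shCtrl cells, beside 56.5%, 26.5% and 18.1%, and 4 (ARID1A) and 2 (TRIM28) in unmodified cells, beside 8.22% and 6.79%. Member peaks that meet another antibody's peak were also counted with the second list against IgG. In shARID1A cells 20.8% of H3K9me3 peaks and 11.9% of TRIM28 peaks met SETDB1. In shCtrl cells 10.6% of ARID1A peaks met SETDB1. In unmodified cells 0% and 3.47% of ARID1A peaks met H3K9me3 and TRIM28, and 0% of H3K9me3 peaks met TRIM28. The shares over all genes are not given beside these, so they are not read as above or below a background. An alternative chosen after seeing the data, like those on starts and on second lists, left out the libraries labelled shCtrl H3K9me3 and shCtrl SETDB1. Without them 13 members held a strong peak and 6 sites were in 4 or more libraries. The shares over all genes are not given beside these counts. Summits of 5 to 12 fragments at the median, unknown depth and single libraries limit every list.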
